A study of Mus musculus with 10 samples.

Results

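Nucleases that degrade nucleic acid in endosomes and lysosomes, and the receptors that sense it there, were described in ARG1+ and ARG1- cells of the inflamed mouse spinal cord. The 10 genes were chosen by name from the 55487 genes of the count table, as Pld3 and genes related to it as nucleases or sensors. They are Pld3, Pld4, Dnase2a, Rnaset2a, Rnaset2b, Trex1, Samhd1, Unc93b1, Tlr7 and Tlr9. Pld3 was picked because it separated the 2 groups of these same libraries, so its difference is given as a description without a test. All 10 genes were among the 13740 that passed the filter on low values (more than 1 CPM, the read count scaled to a common library size, in 3 or more libraries).

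The cells came from 5 male adult mice of the Arg1tm1Lky genotype on the C57BL/6 background, in which yellow fluorescent protein (YFP) reports the activity of the Arg1 gene. All mice had experimental autoimmune encephalomyelitis (EAE), a model of multiple sclerosis induced by immunisation against a myelin peptide, and were taken at the peak of disease. From each spinal cord, viable CD45+CX3CR1+ cells without CD3 and Ly6G were sorted into YFP+ (ARG1+, 200000 cells) and YFP- (ARG1-, 100000 cells) fractions, which gave 5 libraries of each group. The animals are m2, m6, m234, m235 and m236, and each gave both fractions. The gate can hold microglia, monocyte-derived cells, conventional dendritic cells and macrophages of the borders of the central nervous system. ARG1+ means that the reporter was on, not that a cell belongs to 1 cell type.

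Phagocytes take up large amounts of DNA and RNA from dying cells and microbes. In the acid interior of the lysosome these are cut by DNase II (Dnase2a), which cleaves double-stranded DNA, by RNase T2 (Rnaset2a and Rnaset2b), which cleaves single-stranded RNA, and by the membrane-bound exonucleases PLD3 and PLD4, which trim single-stranded nucleic acid from the 5′ end. What is not degraded can be sensed by TLR7, a receptor for single-stranded RNA and its breakdown products, and TLR9, a receptor for DNA with unmethylated CpG, both of which need the chaperone UNC93B1 to reach endosomes. Trex1 and Samhd1 are related by task rather than by place: TREX1 is a 3′ exonuclease that removes DNA from the cytosol, and SAMHD1 breaks down deoxynucleotides in the nucleus and cytosol, so the name endolysosomal does not hold for these 2 genes.

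Library totals were 28870482 to 33826355 counts in ARG1+ cells and 28212174 to 35455643 in 4 of the ARG1- libraries, while the ARG1- library of m234 had 8396863. That library also stood apart by its microglia markers, which summed to 1083 CPM against 134 to 352 in the other ARG1- libraries and 91.5 to 207 in ARG1+ libraries. Arg1 itself, the gene behind the sort, was at 588 to 1049 CPM in ARG1+ and 14.3 to 27.0 CPM in ARG1- libraries. The labels thus hold for every library. Mitochondrial genes took 0.702% to 0.889% of the counts, without a library apart from the rest.

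PLD3 and PLD4 are members of the phospholipase D family whose active site is made by a pair of motifs, each with a histidine, a lysine and an acidic residue. The stretches of coding sequence that hold these motifs are shown because they are what the pair of proteins have in common, with the codons of the 3 residues in capitals (GRCm38, GENCODE annotation, 5′ to 3′ along the gene). Each lies within 1 coding exon.
Pld3 motif 1, chr7:27539404-27539427, minus strand: CACaccAAGttctgggtggtgGAT
Pld4 motif 1, chr12:112765048-112765071, plus strand: CACtccAAAttctgggttgtgGAT
Pld3 motif 2, chr7:27532591-27532614, minus strand: CACaacAAGtacatggtgactGAA
Pld4 motif 2, chr12:112768082-112768105, plus strand: CACagcAAGttcatggtcacaGAC
The third marked codon is one for aspartate in both motifs of Pld4 and in motif 1 of Pld3, and one for glutamate in motif 2 of Pld3. The Pld3 coding sequence has 1464 bases and that of Pld4 1509, and no stretch of 50 bases, the read length, is shared by the exons of these genes with those of any other gene.

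Pld3 (chr7:27532000-27553218, minus strand) and Pld4 (chr12:112760655-112768990, plus strand) differed in direction: Pld3 was higher in ARG1+ cells, and Pld4 was lower in each animal without passing the main test. Pld3 was at 331, 356, 312, 313 and 336 CPM in the ARG1+ libraries of m2, m6, m234, m235 and m236, and at 186, 209, 202, 182 and 210.2 CPM in their ARG1- libraries. Every ARG1+ library was above every ARG1- library. On average Pld3 was at 329 ± 18.0 against 198 ± 13.0 CPM (SD, n = 5 per group). This is 1.67-fold, with 0.74 (SE 0.0613) as its log2 fold change, and the log2 ratio within an animal ran from 0.63 to 0.83. Leaving out any library or animal in turn kept this value between 0.71 and 0.76. In these bulk samples, a lower or higher share of cells of some type and a lower or higher level of RNA per cell cannot be told apart, here and for every gene that follows.

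Pld4 was at 327, 341, 345, 256 and 351 CPM in the ARG1+ libraries of m2, m6, m234, m235 and m236, and at 421, 406, 506, 330.0 and 399.8 CPM in the ARG1- libraries. In all 5 animals the ARG1+ library was the lower one, but the groups overlapped, since the ARG1- library of m235 was below 3 of the ARG1+ libraries. The log2 fold change was -0.35 (SE 0.113, 95% interval -0.59 to -0.10) with an edgeR FDR of 0.0630, the false discovery rate adjusted over all genes tested, so that Pld4 did not pass the threshold of 0.05. With the animal as a block in the fit, which compares the 2 libraries of each mouse, the estimate hardly moved and Pld4 passed (log2 fold change -0.34, edgeR FDR 0.000651). It also passed without the ARG1- library of m235 (log2 fold change -0.41, edgeR FDR 0.0264), without both libraries of m235 (-0.34, edgeR FDR 0.0240), with DESeq2 (adjusted p = 0.0223) and with plain library totals (edgeR FDR 0.0446). Per base of exon, the level of Pld3 was 0.756 to 1.02 times that of Pld4 in ARG1+ libraries and 0.333 to 0.461 times in ARG1- libraries.

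**Figure D1:**
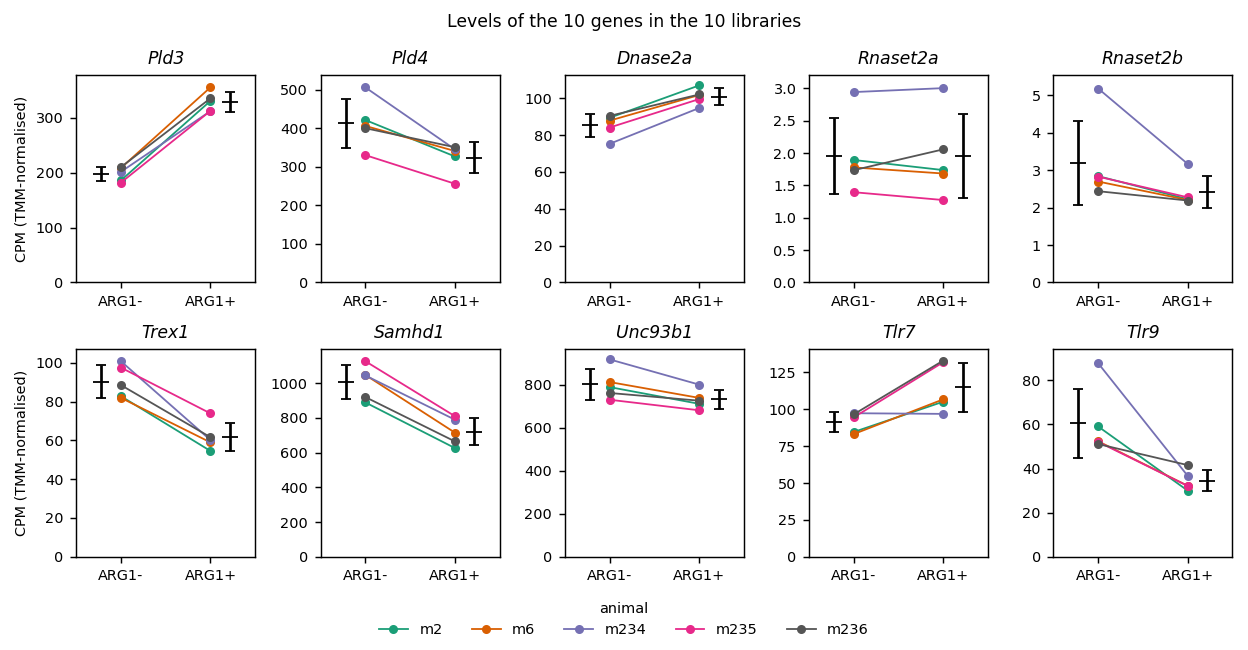
Normalised read counts (CPM, vertical axis from 0) of the 10 genes in the ARG1- and ARG1+ library of each animal, joined by a line, with the mean and SD of 5 libraries as black bars. Pld3 and Dnase2a lie higher in every ARG1+ library, Trex1, Samhd1 and Tlr9 lie lower in every one, and the ARG1- library of m234 holds the highest Tlr9 value, 87.8 CPM.

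Among the DNA nucleases, Dnase2a was higher and Trex1 lower in ARG1+ cells. Dnase2a (chr8:84908560-84922915, plus strand) was at 107, 102, 94.6, 99.5 and 102 CPM in the ARG1+ libraries of m2, m6, m234, m235 and m236, and at 89.4, 87.8, 75.2, 84.1 and 90.4 CPM in the ARG1- libraries. The groups did not overlap, although the difference was small, at 1.18-fold (log2 fold change 0.24, SE 0.0579, edgeR FDR 0.0201). The call was lost without the ARG1+ library of m2 (edgeR FDR 0.0558), without the pair of libraries from m2, from m6, from m235 or from m236 (edgeR FDR 0.0539 to 0.0846), and with plain library totals (log2 fold change 0.20, edgeR FDR 0.0512).

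Trex1 (chr9:109057933-109059734, minus strand) was at 54.6, 59.0, 60.2, 73.9 and 61.6 CPM in the ARG1+ libraries of m2, m6, m234, m235 and m236, and at 82.8, 81.9, 101, 97.6 and 88.5 CPM in the ARG1- libraries. All ARG1+ libraries were below all ARG1- libraries, with a log2 fold change of -0.54 (SE 0.0863, edgeR FDR 0.00242), so that ARG1- cells had 1.46 times the level of ARG1+ cells. The call held in all 15 omissions of a library or an animal (log2 fold change -0.62 to -0.49, edgeR FDR at most 0.0176).

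Samhd1 (chr2:157097533-157135265, minus strand), which limits the supply of deoxynucleotides, had the most counts of the 10 genes over all libraries, though Unc93b1 had slightly more in ARG1+ cells (112793 against 111586 counts). It was at 626, 715, 790, 810 and 664 CPM in the ARG1+ libraries of m2, m6, m234, m235 and m236, and at 889, 1047, 1044, 1126 and 919.5 CPM in the ARG1- libraries. The groups were again apart, at a log2 fold change of -0.48 (SE 0.0905, edgeR FDR 0.00618), and the call held in all 15 omissions (edgeR FDR at most 0.0497). The animals kept their order only in part: m235 had the highest Samhd1 level of both groups and m2 the lowest of both. In m235, genes induced by interferon were also higher than in the other animals, with sums of 2079 (ARG1+) and 2342 CPM (ARG1-) against at most 1115 and 1688 CPM elsewhere. The log2 ratio of Samhd1 within an animal ran from -0.55 to -0.40 and was -0.48 in m235. The sum of the interferon-induced genes was lower in the ARG1+ library of all 5 animals, and its part in the Samhd1 result was not tested.

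The paralogous RNase T2 genes could not be measured separately. Their coding sequences of 777 bases each are the same in every base, and of the 50-base stretches of their exons 78.9% (Rnaset2a, chr17:8115445-8148097, minus strand) and 76.3% (Rnaset2b, chr17:6970634-7011299, plus strand) occur in exons of other genes, chiefly the other copy. To show what a read of this length sees, these are the first 50 coding bases of each gene.
Rnaset2a, chr17:8147645-8147694, minus strand: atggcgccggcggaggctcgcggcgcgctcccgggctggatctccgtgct
Rnaset2b, chr17:6978998-6979047, plus strand: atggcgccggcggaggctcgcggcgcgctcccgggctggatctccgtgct
In addition, 27.2% of the exon bases of Rnaset2a and 26.3% of those of Rnaset2b are overlapped on the same strand by another annotated gene (Gm49673 and Gm49721), and the counting mode leaves out reads that overlap more than 1 feature. The values below are therefore those of the few reads that were assigned, not levels of the enzyme's RNA.

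Rnaset2a had 25 to 93 counts per library and Rnaset2b 44 to 98. Rnaset2a averaged 1.95 ± 0.651 CPM among ARG1+ and 1.95 ± 0.586 CPM among ARG1- libraries (SD, 5 libraries per group) and did not pass the test (log2 fold change 0.06, 95% interval -0.48 to 0.61, edgeR FDR 0.897). Rnaset2b averaged 2.41 ± 0.423 against 3.20 ± 1.12 CPM and was lower in the ARG1+ library of all 5 animals, without passing the test (log2 fold change -0.34, 95% interval -0.79 to 0.11, edgeR FDR 0.287). Nor did Rnaset2b pass with the animal as a block (log2 fold change -0.36, 95% interval -0.66 to -0.06, edgeR FDR 0.0648). The sum of both genes had a log2 difference of -0.22 (2-sided exact permutation test, p = 0.413, and 0.413 adjusted over the 2 single-value tests). This sum was lower in the ARG1+ library of 4 of 5 animals. Flipping the sign within the animals gave p = 0.125, where 0.0625 is the smallest that this exact test can give. The groups of 5 overlapped, at 3.55 to 6.17 CPM and 4.17 to 8.12 CPM, and the difference shrank to -0.04 (exact p = 0.825) without the ARG1- library of m234 and grew to -0.35 (exact p = 0.0476) without the ARG1+ library of m234. A processed pseudogene, Gm47942 (chr13:58668624-58668839, minus strand), shares 24% of its 50-base stretches with the pair and had 309 to 899 counts per library, more than either gene. It was noticed after the values were seen, and adding it to the sum gave a log2 difference of -0.37 (exact p = 0.0952). Most of that sum, 24.5 against 31.6 CPM on average, was the pseudogene itself, at 20.2 against 26.5 CPM. The value is thus mainly that of Gm47942, whose own log2 fold change was -0.38.

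Among the receptors, Tlr7 and Tlr9 moved in opposite directions. Unc93b1 (chr19:3935186-3949340, plus strand), the chaperone that both require, was at 681 to 801 CPM in ARG1+ and 730 to 918 CPM in ARG1- libraries. It was lower in the ARG1+ library of all 5 animals, with log2 ratios of -0.20 to -0.07, but the groups overlapped and it did not pass without the block (log2 fold change -0.13, 95% interval -0.29 to 0.02, edgeR FDR 0.237). With the animal as a block it passed (log2 fold change -0.13, edgeR FDR 0.0194).

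Tlr7 (chrX:167304929-167330558, minus strand) was at 105, 107, 96.9, 132 and 133 CPM in the ARG1+ libraries of m2, m6, m234, m235 and m236, and at 84.7, 83.2, 97.3, 94.6 and 96.6 CPM in the ARG1- libraries. It was higher in 4 of 5 animals, and in m234 the 2 libraries had nearly the same level, so that the groups overlapped. The log2 fold change was 0.33 (SE 0.0938, edgeR FDR 0.0375). This call was the least stable of the set: it was lost with plain library totals (edgeR FDR 0.0503) and without any 1 of 7 libraries, namely the ARG1- libraries of m2, m6 and m236 and the ARG1+ libraries of m2, m6, m235 and m236 (log2 fold change 0.27 to 0.36, edgeR FDR 0.0513 to 0.0880). It was also lost without both libraries of m2, of m6, of m235 or of m236 (edgeR FDR 0.0852 to 0.120). With the animal as a block, the edgeR FDR was 0.00279.

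Tlr9 (chr9:106222598-106226883, plus strand) was at 30.02, 32.2, 36.7, 32.1 and 41.6 CPM in the ARG1+ libraries of m2, m6, m234, m235 and m236, and at 59.1, 52.4, 87.8, 52.1 and 51.1 CPM in the ARG1- libraries. All ARG1+ libraries were below all ARG1- libraries. Its log2 fold change of -0.80 (SE 0.147, edgeR FDR 0.00553), with 1.74 times the level in ARG1- cells, was the largest in size of the 10 genes with all libraries included. The ARG1- library of m234, which had the highest microglia markers and the lowest depth, was also the highest in Tlr9, and without it the log2 fold change was -0.63 (edgeR FDR 0.00197), smaller in size than the 0.75 of Pld3 in the same fit. The part of these markers in the result was not tested.

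The balance of the receptors was compared as the ratio of Tlr9 to Tlr7 CPM within each library, which does not depend on library size. The ratio was 0.244 to 0.379 in ARG1+ and 0.529 to 0.902 in ARG1- libraries, without overlap. The log2 ratio differed by -1.11 (means -1.73 ± 0.231 and -0.62 ± 0.309, SD, n = 5 per group, 2-sided exact permutation test, p = 0.00794, the smallest that 5 against 5 allows, and 0.0159 adjusted over the 2 single-value tests). It was lower in ARG1+ cells in all 5 animals, and without the ARG1- library of m234 the difference was -0.99 (exact p = 0.0159). Flipping the sign within the 5 animals gave p = 0.0625, which is the smallest p that this exact test can give.

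**Figure D2:**
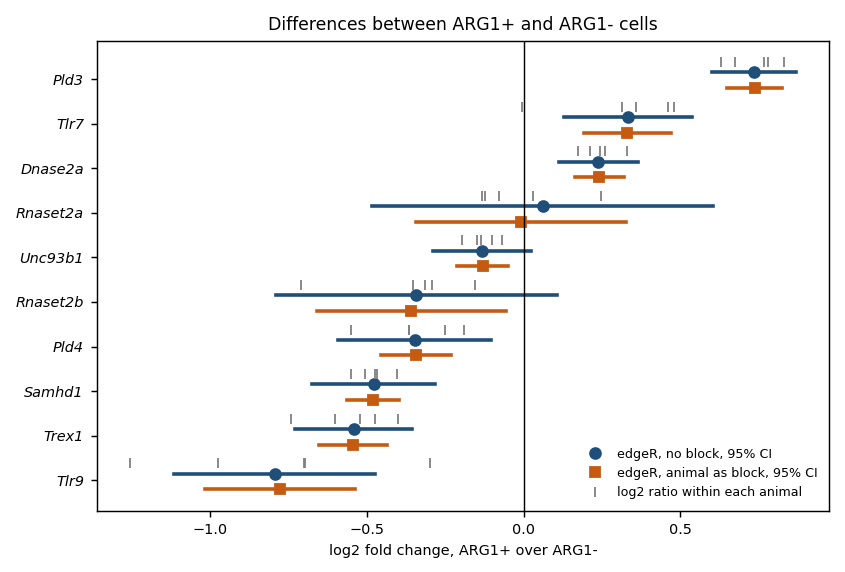
Log2 fold changes of ARG1+ over ARG1- cells for the 10 genes (horizontal axis), as estimated by edgeR without a block (circles) and with the animal as a block (squares), with 95% intervals as bars and the log2 ratio within each of the 5 animals as ticks. Tlr9 lies lowest at -0.80 and Pld3, the gene chosen on this difference, highest at 0.74. The bars of Pld3 are a description and not a test. The estimates with and without the block differ little, while the intervals with the block are shorter.

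Of the 9 genes other than Pld3, 2 (Tlr7 and Dnase2a) were higher and 3 (Tlr9, Trex1 and Samhd1) lower at an edgeR FDR below 0.05, and 4 did not pass. Among all genes tested, 6.82% were higher and 6.15% lower by this rule. With the animal as a block 2 were higher and 5 lower, with Pld4 and Unc93b1 added, where 16.8% of all genes were higher and 18.3% lower. The groups did not overlap for 2 of the 10 genes on the higher side (Pld3 and Dnase2a) and 3 on the lower side, where this held for 6.15% and 5.2% of all genes. None of the 9 changed by more than 2-fold, a limit that together with the FDR left 0.56% of all genes higher and 0.888% lower. Since the list was made with results of this comparison in view, nothing is read from these shares. The median log2 fold change of the 9 genes was -0.34, against 0.00 over all genes tested. That middle value is the one of Rnaset2b, whose few assigned reads do not give a level of the enzyme's RNA.

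Compared per kilobase of annotated exon (CPM per kb), the 10 genes spanned a wide range of levels. How the counting treated reads that several transcripts of 1 gene share could not be learned from the sources used here, and it can shift levels between genes. Unc93b1 was the highest in both groups, with 323 ± 19.5 (ARG1+) and 354 ± 31.6 (ARG1-) CPM per kb (SD, n = 5 per group), and did not overlap with any other gene. In ARG1- cells Pld4 (208 ± 31.7) and Samhd1 (182.9 ± 17.9) came next and overlapped, followed by Pld3 (83.4 ± 5.48) and Trex1 (78.7 ± 7.44), which also overlapped, and then Dnase2a (43.6 ± 3.15). In ARG1+ cells Pld4 (163 ± 19.7), Pld3 (139 ± 7.59) and Samhd1 (131 ± 14.3) overlapped with each other, and so did Trex1 (53.9 ± 6.32) and Dnase2a (51.6 ± 2.27). Tlr7 (29.0 ± 4.20 in ARG1+, 23.0 ± 1.72 in ARG1-) stood above Tlr9 (9.93 ± 1.33 and 17.4 ± 4.48) in mean level, with overlap in ARG1- cells only. The assigned reads of Rnaset2b and Rnaset2a were lowest, at 0.924 CPM per kb or less on average, which is not a level of the enzyme for the reasons given above.

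**Figure D3:**
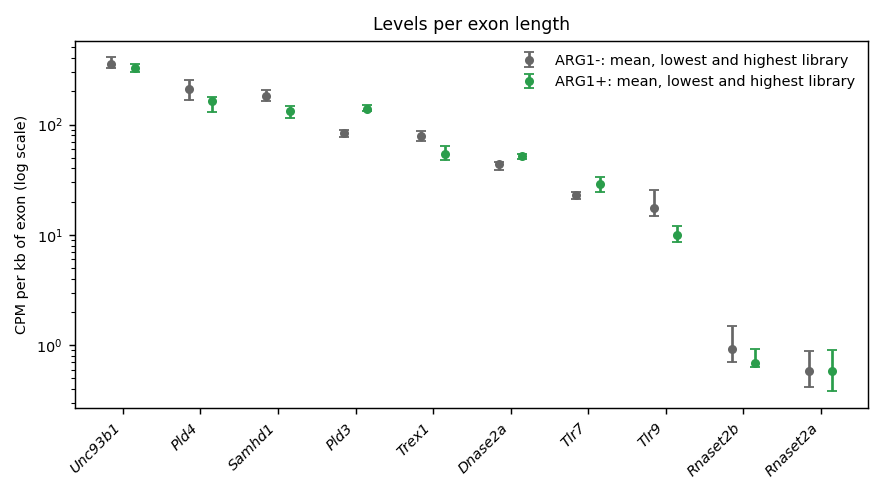
Levels of the 10 genes per exon length (CPM per kb of exon, log axis), with the mean of 5 libraries as a point and the lowest and highest library as bars, in ARG1- (grey) and ARG1+ (green) cells. Genes are ordered by their ARG1- level from Unc93b1 (354 CPM per kb) to Rnaset2a (0.583 CPM per kb), and Pld3 reaches the range of Pld4 and Samhd1 in ARG1+ cells only.

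Promoters were at hand for 8 of the 10 genes (RefSeq, GRCm38.p6, 250 bases before to 50 after the start), but not for Tlr7 and Unc93b1. Trex1 and Rnaset2a had 2 promoters each, and the shares below count promoters, not genes. They were searched on both strands for CACGTG, the core of sites for the MiT/TFE factors that drive lysosomal genes, for GAAANNGAA, a core of interferon response sites, and for GAGGAAGT, a site for the myeloid factor PU.1. CACGTG was in none of them. It was in 7.15% of 32851 promoters, so that its absence from so few says little. GAAANNGAA was in the promoter of Pld3 alone, against 8.56% of all, and GAGGAAGT was in those of Pld4, Trex1 and Tlr9, against 3.2% of all. The matches are shown with the motif, or its reverse complement, in capitals, since they differ between Pld3 and the other 3 genes.
Pld3, chr7:27553439-27553468, minus strand, motif 247 bases upstream of the start: tcaGAAAGAGAAatcatttatctgatcgta
Pld4, chr12:112760653-112760682, plus strand, motif 9 bases downstream of the start: ctcagaacaaaGAGGAAGTgaatggaaggg
Tlr9, chr9:106222597-106222626, plus strand, motif 10 bases downstream of the start: gtgaaagtgtcACTTCCTCaattctctgag
Trex1, chr9:109059233-109059262, minus strand, motif at the downstream one of 2 annotated starts: caggcagttttACTTCCTCagccacactgc
These are matches of letters, and no binding was measured in these samples.

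The genes most like Pld3 from library to library were sought by Pearson's r of log2 CPM over the 10 libraries after the group means were removed, among 8631 genes with a mean of at least 10 CPM. They were Rragc (r = 0.965), Naglu (0.934), Ubald1 (0.927), Cd300c2 (0.924) and Napa (0.913). These values describe 5 pairs of libraries that share animals, and the highest of 8631 are high by selection. Of these 5 genes, Naglu was the one with a difference between the groups near that of Pld3, at a mean of 168 CPM (ARG1+) against 111 CPM (ARG1-). Among the other 7 members compared, the value ran from -0.36 (Samhd1) to 0.47 (Pld4), with 0.01 for Tlr9 and 0.00 for Tlr7.

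Other genes of the pathway were taken from 5 lists written from general knowledge. In the list of other nucleases and nucleic acid salvage, 19 of 26 genes were tested, of which 1 was higher and 4 lower in ARG1+ cells (edgeR FDR below 0.05). By this rule 6.82% of all genes tested were higher and 6.15% lower. Rnase6, a secreted RNase of the RNase A family that is also found in endolysosomes, fell from 14.8 ± 2.79 to 5.42 ± 1.74 CPM (SD over 5 libraries per group, log2 fold change -1.43, SE 0.200, edgeR FDR 0.00122), with all ARG1+ libraries below all ARG1- libraries. Dnase1l3, a secreted DNase that degrades chromatin in microparticles, was low in both groups and fell from 4.35 ± 1.74 to 1.96 ± 0.602 CPM (log2 fold change -1.09, edgeR FDR 0.0318). The lysosomal nucleic acid transporter gene Sidt2, the most abundant of the list, was lower by a small amount (228 ± 6.21 against 255 ± 7.33 CPM, edgeR FDR 0.0356), as was Slc29a3, the nucleoside transporter of the lysosome (169.7 ± 13.7 against 218 ± 40.0 CPM, edgeR FDR 0.0491). Pld2, a phospholipase D that acts on lipid, was higher (68.1 ± 3.38 against 60.0 ± 3.28 CPM, log2 fold change 0.18, edgeR FDR 0.0442). The median log2 fold change of the list was 0.13. With 1 library left out the count of higher genes was 0 to 2 and that of lower genes 1 to 4, and it fell to 1 or 2 lower genes without any 1 of the libraries of m2, m6, m235 and m236, while Rnase6 and Dnase1l3 were the ones with changes past 2-fold.

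Among the 18 of 20 tested genes that serve the endosomal Toll-like receptors, 4 were higher and 2 lower in ARG1+ cells. Of all genes tested 6.82% were higher and 6.15% lower. The higher ones include 3 cathepsins, lysosomal proteases that cut the receptors to their active form. Ctsb was at 6739 ± 710.2 CPM when ARG1+ and 4495 ± 313 CPM when ARG1- (log2 fold change 0.58, edgeR FDR 0.00184), Ctsl at 953 ± 83.5 and 656 ± 46.1 CPM (0.54, edgeR FDR 0.00121), and Ctss, the most abundant gene of the list, at 9161 ± 564 and 7069 ± 543 CPM (0.37, edgeR FDR 0.0103). For all 3 cathepsins every ARG1+ library was above every ARG1- library. Lgmn, the gene of another protease on the list, was at 1435 ± 224 and 1350 ± 166 CPM and did not pass (log2 fold change 0.09, edgeR FDR 0.648). Tlr8, the RNA receptor next to Tlr7 on the X chromosome, also rose, from 55.1 ± 7.71 to 77.7 ± 11.5 CPM (log2 fold change 0.49, SE 0.114, edgeR FDR 0.0166), in 5 of 5 animals. Slc15a4, a lysosomal transporter needed for signalling by these receptors, was lower (log2 fold change -0.43, edgeR FDR 0.0239). The other lower gene, Tlr11, was at 0.382 to 0.775 CPM in ARG1+ and 0.801 to 2.24 CPM in ARG1- libraries. It passed the filter on low values through the ARG1- libraries alone, so that its direction was fixed by the filter and 1 lower gene is left without it. The chaperones Hsp90b1 and Cnpy3 did not pass (log2 fold changes 0.05 and 0.02). The median log2 fold change of the list was 0.05, with or without Tlr11. Without the ARG1+ library of m2 the count of lower genes, Tlr11 included, was 0, and it was 1 without any 1 of the ARG1- libraries of m2, m6 and m234 or the ARG1+ libraries of m6, m235 and m236. Without both libraries of m2 or both of m6, 2 genes were higher.

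Of 14 tested genes of signalling downstream of the receptors, 5 were lower and 0 higher (1 higher at an unadjusted p below 0.05 in edgeR, 0 by DESeq2 and 0 by limma-trend). Over all genes tested 6.15% were lower and 6.82% higher at an edgeR FDR below 0.05. With the animal as a block 7 were lower and 2 higher, the kinases Irak1 (edgeR FDR 0.0402) and Ikbke (edgeR FDR 0.0146), at log2 fold changes of 0.10 and 0.15 without it. The fit with the block called 18.3% of all genes tested lower and 16.8% higher. Irf5, a transcription factor that TLR7 and TLR9 activate, fell from 264 ± 10.8 to 197 ± 7.46 CPM (log2 fold change -0.42, SE 0.0499, edgeR FDR 0.000464). Ticam1, the adaptor TRIF of TLR3 and TLR4, fell from 23.7 ± 3.07 to 15.5 ± 1.39 CPM (log2 fold change -0.60, edgeR FDR 0.00217). Myd88, the adaptor of TLR7 and TLR9, and the kinase Irak2 both had a log2 fold change of -0.32 (edgeR FDR 0.0132 and 0.00782), and Traf6 was lower too (-0.20, edgeR FDR 0.0242). The most abundant gene, Irf7, was at 251.6 ± 106.9 and 334 ± 90.3 CPM, with a wide spread between animals, and did not pass (log2 fold change -0.41, edgeR FDR 0.301), whereas with the animal as a block it did (edgeR FDR 0.00115). The median of the list was -0.15, and 3 genes were lower without both libraries of m2 or both of m6.

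Among the 12 cytosolic sensors and their regulators, 1 was higher and 1 lower, near the shares of 6.82% and 6.15% over all genes tested. These counts depended on the method. At an unadjusted p below 0.05 in edgeR 2 were higher and 8 lower, and DESeq2 and limma-trend each gave 1 higher and 3 lower. Enpp1, which degrades the second messenger cGAMP outside the cell, rose from 12.8 ± 2.12 to 23.2 ± 3.62 CPM (log2 fold change 0.85, SE 0.132, edgeR FDR 0.00212). Sting1, the receptor of cGAMP, fell from 132 ± 11.5 to 94.0 ± 9.51 CPM (log2 fold change -0.49, SE 0.0802, edgeR FDR 0.00294). Neither gene overlapped between the groups. Ifi204, the most abundant of the list, was at 226 ± 66.5 and 305 ± 51.9 CPM and did not pass (edgeR FDR 0.121). The median of the list was -0.38. With the animal as a block 9 genes were lower and 2 higher, where 18.3% and 16.8% of all genes tested were. The count of lower genes was also 9 without the ARG1+ library of m235, in which interferon-induced genes were highest of the ARG1+ libraries.

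Of 16 interferon-stimulated genes, 4 were lower and 0 higher in ARG1+ cells (0 higher at an unadjusted p below 0.05 in edgeR, 0 by DESeq2 and 0 by limma-trend). Over all genes tested 6.15% were lower and 6.82% higher at an edgeR FDR below 0.05. Cxcl10, a chemokine, fell from 176 ± 14.7 to 115 ± 11.98 CPM without overlap (log2 fold change -0.62, edgeR FDR 0.00086). Oasl1 (-1.11, edgeR FDR 0.0351), Isg15 (-0.89, edgeR FDR 0.0420) and Irf9 (-0.29, edgeR FDR 0.0380) were lower with overlap between the groups, and Oasl2, the most abundant of the list, was at 172 ± 49.5 against 241 ± 44.9 CPM and did not pass (edgeR FDR 0.0902). The sum over the list was lower in the ARG1+ library of all 5 animals, at 880 to 2079 CPM against 1406 to 2342 CPM. The spread between animals was larger than this difference. With the animal as a block 14 of the 16 genes were lower, against 18.3% of all genes tested. The count without the block was 13 when the ARG1+ library of m235 was left out, and 1 or 2 without any 1 of the other ARG1+ libraries or the ARG1- libraries of m234, m235 and m236. The median log2 fold change of the list was -0.56.

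**Figure D4:**
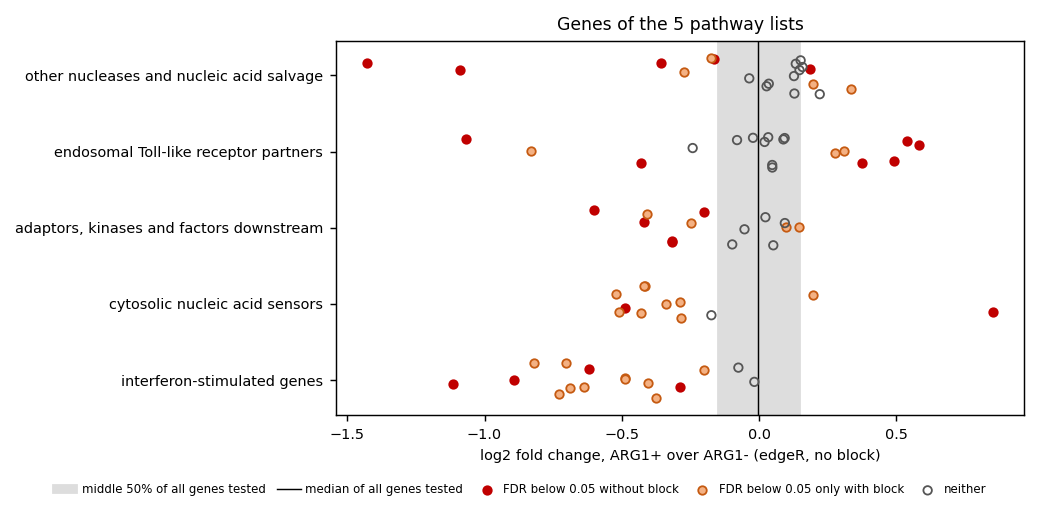
Log2 fold changes of ARG1+ over ARG1- cells (horizontal axis) of the tested genes in the 5 pathway lists, 1 point per gene, filled red where the edgeR FDR was below 0.05 without a block and orange where it was so only with the animal as a block. The grey band and the black line give the middle 50% and the median of all 13740 genes tested, and most interferon-stimulated genes lie to the left of the band, 4 of them in red. The red point at -1.07 in the list of receptor partners is Tlr11, which is below 1 CPM in all ARG1+ libraries.

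Markers of other cell types were summed per library, since some of these cells make the same nucleases and sensors. T cells and neutrophils should have been removed by the sort on CD3 and Ly6G, and their lists check this. Plasmacytoid dendritic cells and B cells are known for high Tlr7, Tlr9 and, in the mouse, Pld4. The summed level of 9 plasmacytoid dendritic cell markers was 198 to 279.8 CPM in ARG1+ and 233.7 to 342 CPM in ARG1- libraries, lower in ARG1+ cells in 5 of 5 animals, and most of it was Bst2, which myeloid cells express too. Of these 9 genes 4 were tested and 0 were called by edgeR (3 lower at an unadjusted p below 0.05, 2 lower by DESeq2 and 1 lower by limma-trend), whereas 3 were lower with the animal as a block (Siglech, Bst2 and Pacsin1, edgeR FDR 0.0119 to 0.0242). Ccr9, Spib, Klk1 and Ly6d were below 1 CPM on average in both groups. Cox6a2 (0.610 against 2.09 CPM) and Pacsin1 (0.626 against 1.33 CPM) were low too and were lower in the ARG1+ library of 5 of 5 animals. Pacsin1 passed the filter through the ARG1- libraries alone. Siglech, which this list shares with the microglia list, was at 3.58 to 10.9 and 6.51 to 71.0 CPM, highest in the ARG1- library of m234. The B and plasma cell list summed to 5.03 to 13.3 and 19.5 to 52.6 CPM, in which Ighm was lower (log2 fold change -1.91, edgeR FDR 0.00300). Jchain, which passed the filter through the ARG1- libraries alone, was at 0 to 1.47 against 1.75 to 5.53 CPM. Cd79b did not pass (log2 fold change 0.08, edgeR FDR 0.921), Cd79a was at 0.432 against 0.338 CPM on average, and Ms4a1 and Pax5 were below 0.1 CPM on average in both groups. The conventional dendritic cell list summed to 10.9 to 26.9 and 23.5 to 44.6 CPM. Flt3 (0.0606 to 0.425 against 2.18 to 6.12 CPM), Dpp4 (0.098 to 0.743 against 2.44 to 7.23 CPM) and Zbtb46 (0.458 against 1.49 CPM on average) passed the filter through the ARG1- libraries alone, so that their direction was fixed by it. Of the other 3 tested genes Ccr7 (log2 fold change -2.77, edgeR FDR 0.000203) and Batf3 (-0.93, edgeR FDR 0.0302) were lower, while Clec9a, its most abundant gene, did not pass (0.28, edgeR FDR 0.547).

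The microglia list summed to 91.5 to 207 CPM in ARG1+ and 134 to 1083 CPM in ARG1- libraries, again lower in the ARG1+ library of 5 of 5 animals. None of its 6 genes was called without the block (edgeR, 5 lower at an unadjusted p below 0.05, 1 lower by DESeq2, 0 by limma-trend), and all 6 were lower with it. Its most abundant gene was Sparc (log2 fold change -1.76, edgeR FDR 0.0818). Border-associated macrophage markers were higher, at 49.7 to 133 against 18.7 to 55.4 CPM in sum, with Mrc1 (log2 fold change 1.16, edgeR FDR 0.0320) and Pf4 (1.89, edgeR FDR 0.00324) called and the defining Cd163, Lyve1 and Cbr2 below 1 CPM on average. The monocyte and macrophage list summed to 12350 to 17030 against 10150 to 12860 CPM, higher in the ARG1+ library of 5 of 5 animals. Most of it was Lyz2, its most abundant gene (11380 against 7262 CPM on average). Lyz2, Cd68 and Itgam were called higher and Ccr2 lower (-1.12, edgeR FDR 0.00339). Ptprc, Cx3cr1, Ly6c2 and Fcgr1, lower in 5 of 5 animals, and Adgre1, higher in 5 of 5, did not pass. The median log2 fold change of the list was -0.18, and with the animal as a block 4 genes were higher and 5 lower. The neutrophil list (12.1 to 31.8 CPM) held S100a8 as its most abundant gene (log2 fold change 0.23, edgeR FDR 0.560), S100a9 at 0.162 to 0.356 against 0.471 to 6.28 CPM, which passed the filter through the ARG1- libraries alone, and Ly6g below 0.1 CPM on average. T and NK cell markers summed to 1.002 to 3.28 CPM per library, with Klrb1c the most abundant, so that these cells were near absent by their markers. The part of these cell types in the differences of the 10 genes was not tested.

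**Figure D5:**
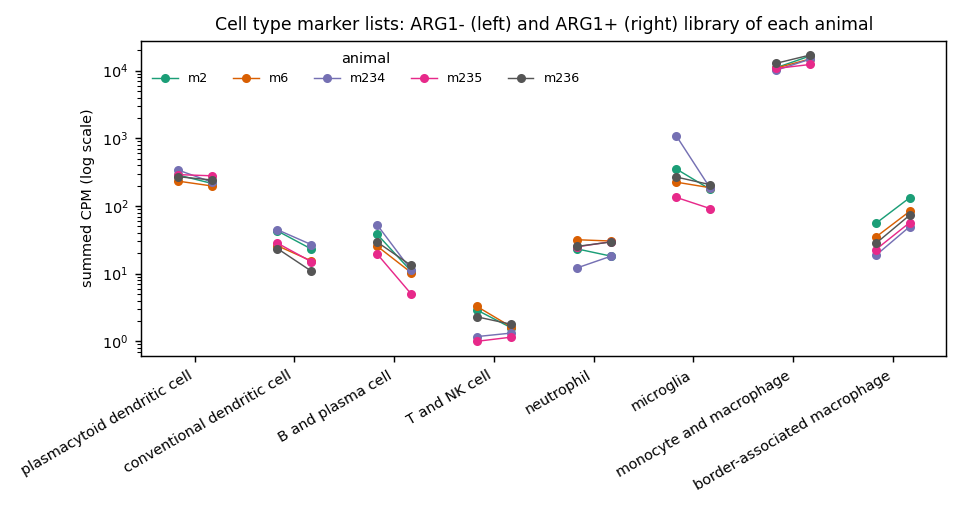
Summed level of 8 cell type marker lists (CPM, log axis) in the ARG1- (left) and ARG1+ (right) library of each animal, joined by a line. The microglia sum of the ARG1- library of m234, 1083 CPM, lies apart from the others. In the ARG1+ library of every animal the dendritic cell, B cell and microglia sums are lower. The border-associated macrophage sum and the monocyte and macrophage sum are higher there.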

How the data were processed

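RNA was measured in 10 libraries, 5 of ARG1+ and 5 of ARG1- cells from the same 5 animals. The authors aligned 50-base single-end reads of directional libraries to GRCm38 with STAR (version 2.7.10b per the submitters' processing notes) and counted them on transcripts of Ensembl's basic annotation with summarizeOverlaps in Union mode, ignoring alignments that were secondary or marked as failed by the vendor. The deposited values are whole-number counts summed to genes, without normalization, and no column was left unused. The use of strand in counting was not given in the sources used here. A gene's counts can be lost to overlapping or near-identical genes.

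Genes above 1 CPM in 3 or more libraries entered the test with edgeR 4.0.16 (R 4.3.3, quasi-likelihood, TMM library sizes, no block) on the counts, with Benjamini-Hochberg FDR below 0.05 over all genes. Levels are CPM on TMM library sizes. DESeq2 1.42.0, limma-trend (limma 3.58.1), other library sizes and filters, a replicate block for the animal, and omission of single libraries or animals were alternatives, and the fits were tested on simulated data. Single values were compared with 2-sided exact permutation tests. The libraries of a pair come from the same animal, and their deviations from the group means correlated at 0.397 to 0.691 across genes (at most 0.0786 between animals). No 2 libraries of a group were alike to within counting error (chi-square over its degrees of freedom, 14.2 to 57.1). In the smallest library 1 CPM is 8.5 counts. Exon lengths, coding sequences and shared 50-base stretches were taken from the GENCODE annotation of GRCm38.

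The 10 genes and the lists were chosen with earlier results of these data known. All 10 genes are named. In each pathway list the most abundant gene and the 4 called genes with the smallest FDR are named, in each marker list the most abundant gene and those called with a change above 2-fold, and further genes named were picked after their values were seen.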

Additional observations from a re-analysis of the deposited data

Results flagged for a closer look

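In each group of 5 libraries, the library farthest from the others was compared with the range of the group (Dixon's test, 20 groups of the 10 genes, of which chance marks about 1 in 20). The ARG1- library of m234 had 87.8 CPM of Tlr9, where the other ARG1- libraries had 51.1 to 59.1 CPM. It also had 5.18 CPM of Rnaset2b against 2.44 to 2.84 CPM. The ARG1+ library of m234 had 3.17 CPM of Rnaset2b against 2.19 to 2.27 CPM. The ARG1+ library of m235 had 256 CPM of Pld4, where the others had 327 to 351 CPM, and the ARG1- library of m235 was likewise the lowest of its group, at 330.0 CPM.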

How the results depend on the processing

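The calls on the 9 genes other than Pld3 were 2 higher and 3 lower. They became 0 higher with plain library totals, 5 lower once a replicate block stood for the animal, and 0 higher and 0 lower when a change above 2-fold was also required. The block changed no call from higher to lower or the reverse, and its values stand beside the genes it added. With a library or an animal left out, 0 to 2 were higher, 2 of them for instance without the ARG1- library of m234 and 0 without the ARG1+ library of m2, and 3 to 4 were lower. Rnaset2a, with few assigned reads, took a log2 fold change of -0.0107 with limma-trend and -0.00896 with the block, and -0.146 to 0.196 over the omissions. The sum of Rnaset2a and Rnaset2b ran from -0.348 to -0.0391, and Tlr9 relative to Tlr7 from -1.19 to -0.99. That ratio was -1.11 with signs flipped within animals, where p = 0.0625 is the smallest this exact test can give.

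In the pathway lists, other nucleases had 2 higher with DESeq2, 0 with library totals and 3 with the replicate block (1 in the main fit), 0 to 2 over the omissions, and 1 to 4 lower. Receptor partners had 2 to 6 higher and 0 to 3 lower over the omissions, and 1 lower without a filter. Downstream factors had 2 higher with the replicate block, and 3 to 6 lower over the omissions. Cytosolic sensors had 3 lower with DESeq2, 3 with limma-trend, 3 without a filter, 4 with library totals and 9 with the replicate block, which also gave 2 higher, and 1 to 9 lower over the omissions. Interferon-stimulated genes had 8 lower with DESeq2, 14 with the replicate block, and 1 to 14 over the omissions. Requiring a change above 2-fold left 2 nucleases, 1 receptor partner (Tlr11) and 1 interferon-stimulated gene lower and 0 genes of the other lists or directions. The cause of these shifts was not tested, apart from the stricter rule. Over the 9 genes tested and all alternatives, 169 of the estimates kept their direction and their side of the threshold, 18 lost a call, 6 gained one and 5, all of Rnaset2a, changed sign. Genes at a few CPM rest on few counts in the smallest library, where 1 CPM is 8.5 counts.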
